A study of Mus musculus with 20 samples.

Results

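The transcripts of 10 genes of endothelial junctions and receptors were followed in whole mouse hearts. These genes were Pecam1, Cldn5, Cdh5, Cd93, Kdr, Flt1, Tie1, Tek, Eng and Meox2. A probe set was assigned to a gene when the platform annotation gave it that single symbol, which found 12 probe sets for the 10 genes, of 12488 probe sets and 8251 named genes on the array. Flt1 and Tie1 had 2 probe sets each and the other 8 genes had 1. All 12 probe sets passed a filter that left out the dimmest 40% of probe sets and kept 7453 probe sets of 5663 named genes. The study asked how 2 vitamin E supplements bear on the transcript profile of the ageing heart, with 5 male mice in each of 4 groups and 1 array for each animal. Alpha-tocopherol mice were 30 months old and had eaten a diet with 1000 mg/kg of alpha-tocopherol from the age of 15 months. Alpha- and gamma-tocopherol mice were also 30 months old and had eaten 500 mg/kg of each form from the same age. Old control mice were 30 months old and young control mice 5 months old, both on the control diet. All mice were housed singly and came from the B6/C3H cross, and 18 were labelled as F1 hybrids, while the label of old controls 1 and 4 gave a hybrid with no F1 mark. The RNA came from the whole organ, so a lower level can mean fewer cells of a type or less RNA in each, and these cannot be told apart here.

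Endothelial cells line every vessel of the heart, and in the myocardium most of them belong to capillaries that pass oxygen and fatty acids to the muscle. They are held together by adherens junctions built on VE-cadherin, the product of Cdh5, by tight junctions sealed with claudin 5, the product of Cldn5, and by the adhesion receptor Pecam1. Their growth and quiescence are set by tyrosine kinase receptors: Kdr and Flt1 bind vascular endothelial growth factors, Tek binds angiopoietins, and Tie1 works as a partner of Tek. Eng is a co-receptor for bone morphogenetic proteins, and Cd93 is a lectin-like receptor that binds the matrix protein multimerin 2. Meox2 is neither a junction protein nor a receptor. It is a homeobox transcription factor that, in mice, acts with Tcf15 in heart capillaries on genes of fatty acid uptake.

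Promoter sequence was taken from a set of mouse promoters on build GRCm38.p6, as a window of 250 bases before to 50 bases after a promoter start for each gene. For Cldn5, Tie1, Eng and Meox2 this is the start of the gene as listed by RefSeq. For Kdr, Flt1 and Tek it lies inside the listed gene, that of Tek beginning at chr4:94739086. The promoter set matched 7 of the 10 genes, all but Pecam1, Cd93 and Cdh5. The windows of 3 genes are shown: Cldn5, which was lower in both supplemented groups and holds none of the motifs searched; Meox2, which had the highest old minus young difference of the 10 genes; and Tek, which was called in no comparison and holds the only GATA motif. Capitals mark GGAA or its reverse complement TTCC, the core letters of ETS factor sites, and AGATAA, letters bound by GATA factors. All 3 genes lie on the plus strand, and the windows are chr16:18776597-18776896 for Cldn5, chr12:37108290-37108589 for Meox2 and chr4:94739039-94739338 for Tek.
Cldn5: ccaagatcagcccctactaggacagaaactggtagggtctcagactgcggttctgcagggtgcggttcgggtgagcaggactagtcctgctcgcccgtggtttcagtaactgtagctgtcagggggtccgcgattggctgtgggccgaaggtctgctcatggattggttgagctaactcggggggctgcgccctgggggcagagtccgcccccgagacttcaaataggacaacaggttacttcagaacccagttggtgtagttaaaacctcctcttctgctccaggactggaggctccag
Meox2: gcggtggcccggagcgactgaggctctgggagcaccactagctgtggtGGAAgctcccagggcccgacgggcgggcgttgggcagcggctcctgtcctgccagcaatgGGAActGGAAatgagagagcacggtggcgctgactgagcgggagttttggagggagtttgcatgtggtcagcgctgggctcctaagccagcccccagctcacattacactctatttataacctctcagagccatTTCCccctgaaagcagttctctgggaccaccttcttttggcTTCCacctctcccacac
Tek: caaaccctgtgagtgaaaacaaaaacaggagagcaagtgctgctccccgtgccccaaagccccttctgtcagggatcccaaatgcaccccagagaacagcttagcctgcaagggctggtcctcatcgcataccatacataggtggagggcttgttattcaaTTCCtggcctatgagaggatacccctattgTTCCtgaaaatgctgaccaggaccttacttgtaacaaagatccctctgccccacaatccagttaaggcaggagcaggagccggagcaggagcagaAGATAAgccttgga
The longer ETS motif CAGGAAG and the forkhead motif GTAAACA were in 0 of the 7 windows on either strand, against 13.27% and 3.65% of 32851 promoters of the same length. AGATAA was in 1 of the 7, at position 37 after the promoter start used for Tek, against 11.18% of all promoters. GGAA, which also lies within CAGGAAG and was added to the search after the sequences had been seen, was in 6 of the 7 windows and in 95.98% of all promoters. It occurred 9 times in Tie1, 5 times in Kdr and in Meox2, 4 times in Flt1 and in Eng, 2 times in Tek and 0 times in Cldn5, against a median of 3. A match is only a match of letters, and its absence says nothing of the factor beyond this window.

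Values are the deposited linear intensities of each array. Differences are of log2(intensity + 58), given with their standard error, and folds are taken from them and so understate changes of dim probe sets. A change was called when its p-value from limma, adjusted by Benjamini-Hochberg over the 7453 probe sets, was below 0.05, and a gene with 2 probe sets is represented by the brighter. Array medians lay between 584.65 and 639.15. On the alpha-tocopherol arrays the hybridization controls, bacterial and phage transcripts added to every sample, read 0.85 higher than on old control arrays on the log2 scale, and 18S ribosomal RNA read 1.66 higher (exact two-sided permutation p = 0.0079 for both, the smallest that 5 against 5 allows, and adjusted p = 0.016 over 12 such tests). In alpha- and gamma-tocopherol hearts against old controls the same differences were 0.28 (exact permutation p = 0.16) and 0.52 (exact permutation p = 0.26). Young control 3 had a summed T cell marker intensity of 32011, against at most 2685 on the other arrays. Old control 3 had a Gapdh 3' signal 1.21 above its 5' signal on the log2 scale, against at most 0.19 elsewhere. Of 12 cardiomyocyte markers on the array 12 passed the filter, and of 22 other endothelial genes 18 did, where 5663 of 8251 named genes passed. No gene of these lists read below 58 on every array, which also held for the T cell and platelet lists. These counts do not test the heart label.

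With age, Pecam1, Cldn5, Cd93 and Meox2 rose. These 4 of the 10 genes were called higher in old control hearts than in young control hearts and 0 were called lower, where 4.94% of all probe sets were called, 2.74% higher and 2.20% lower. The old and young values of these 4 genes did not overlap, which held for 4.23% of all probe sets in that direction. The median difference of the 10 genes was 0.36, against 0.02 over all tested genes, and 8 of the 10 differences were above 0. The 10 genes were chosen with earlier results of these data known, so these shares do not test them as a class. Kdr, Flt1, Tie1, Tek, Eng and Cdh5 did not pass the test, so that 0 of the 5 growth factor and endoglin receptors was called with age by limma, none of them at an unadjusted p below 0.05 either.

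In both supplemented groups Cldn5 fell. In alpha-tocopherol hearts, Cldn5, Cdh5 and Meox2 were called lower than in old control hearts and 0 of the 10 higher, where 21.7% of all probe sets were called, 8.94% higher and 12.8% lower. In alpha- and gamma-tocopherol hearts, Cldn5, Pecam1 and Tie1 were called lower than in old control hearts and 0 higher, where 6.43% of all probe sets were called, 2.67% higher and 3.76% lower. The values of the 3 genes called did not overlap with the old control values in either case, which held for 9.39% and 4.94% of all probe sets in the lower direction. The median difference of the 10 genes was -0.29 for alpha-tocopherol, against -0.04 over all tested genes, and -0.44 for the mixture, against -0.02. Both supplement comparisons and the age comparison use the same 5 old control hearts. The choice of the genes with earlier results known limits these shares too.

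**Figure D1:**
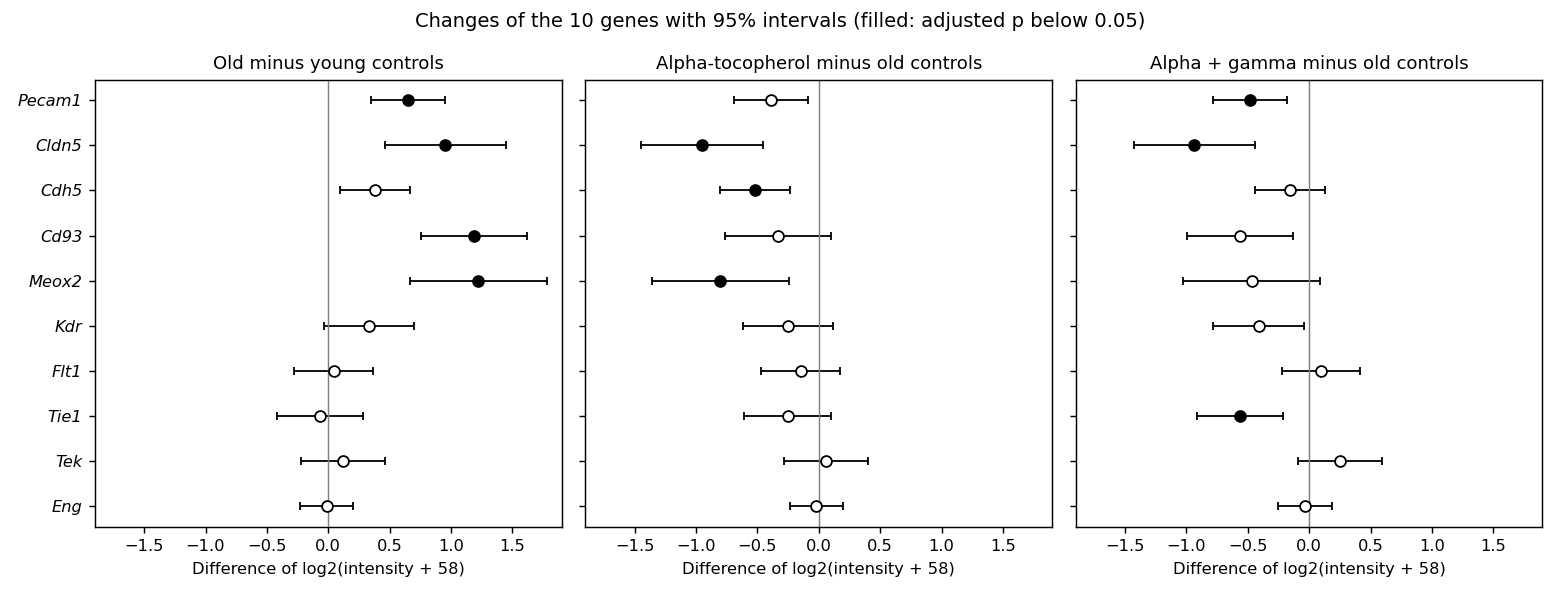
Differences of log2(intensity + 58) for the 10 genes in 3 comparisons, with 95% intervals; filled points have an adjusted p below 0.05. Pecam1, Cldn5, Cd93 and Meox2 lie to the right of 0 in the old minus young panel, and Cldn5 lies near -0.95 in both supplement panels.

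Among the junction genes, Cldn5 had 521, 1150.5, 1079.8, 1040 and 563 in alpha-tocopherol hearts and 657, 1208, 1031, 532 and 922.5 in alpha- and gamma-tocopherol hearts. It had 1536, 1372, 2143, 1587 and 1714 in old control hearts, against 698, 967, 693, 1102.5 and 741 in young control hearts. All 5 old control hearts were above all 15 others, while the other 3 groups overlapped. The old minus young difference was 0.95 ± 0.23, or 1.93-fold (adjusted p = 0.017). The alpha-tocopherol minus old difference was -0.95 ± 0.23 (adjusted p = 0.0059) and that of the mixture was -0.94 ± 0.23 (adjusted p = 0.019), folds of 0.517 and 0.523. Cldn5 was the only one of the 10 genes in which 2 groups that were neighbours in the order of group means differed by the test, namely old control and alpha- and gamma-tocopherol hearts. Against young controls, the difference was 0.00 ± 0.23 in alpha-tocopherol hearts (95% interval -0.49 to 0.50). Within both supplemented groups Cldn5 was uneven: alpha-tocopherol hearts 1 and 5 and alpha- and gamma-tocopherol hearts 1 and 4 read 657 or less, and the other 6 supplemented hearts 922.5 or more.

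Pecam1, which marks endothelium and is also carried by platelets and leukocytes, had 1397, 1306, 1280.4, 1784 and 1349 in alpha-tocopherol hearts and 1254, 1118, 1394, 1465 and 1405 in alpha- and gamma-tocopherol hearts. It had 2296, 2329, 1627, 1665 and 1569 in old control hearts, against 1215, 1245, 915, 1135 and 1398 in young control hearts. Old control hearts 1 and 2 were the highest of all 20, and the lowest old control was above every young control and every alpha- and gamma-tocopherol heart but below alpha-tocopherol heart 4. The old minus young difference was 0.65 ± 0.14, or 1.57-fold (adjusted p = 0.0078). The mixture gave -0.48 ± 0.14 against old controls (adjusted p = 0.045), and this call is close to the threshold: it held in 7 of 20 fits that each left out 1 animal. Alpha-tocopherol gave -0.39 ± 0.14 (adjusted p = 0.055), which did not pass.

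Cdh5 had 4007, 3890, 2453, 4337 and 4099.6 in alpha-tocopherol hearts and 4939, 4917, 4505, 4715 and 4727.5 in alpha- and gamma-tocopherol hearts. It had 4692, 4844, 5422, 6308 and 5428 in old control hearts, against 3821, 4720.4, 3127, 4447 and 4425 in young control hearts. All 5 alpha-tocopherol hearts were below all old control hearts and below all alpha- and gamma-tocopherol hearts, which spanned 4505 to 4939. The alpha-tocopherol minus old difference was -0.52 ± 0.14, a fold of 0.698 (adjusted p = 0.0086), and the mixture gave -0.16 ± 0.14 (adjusted p = 0.53). Old minus young was 0.38 ± 0.14 (adjusted p = 0.11, 95% interval 0.094 to 0.67): 4 of the 5 old hearts were above all young hearts, and the call was missed.

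Cd93 had 1273, 1817, 1725, 1544 and 1431 in alpha-tocopherol hearts and 1605.5, 1236, 1214, 904 and 1774 in alpha- and gamma-tocopherol hearts. It had 1999.5, 1869, 1765, 2472 and 1792 in old control hearts, against 1206.5, 709.9, 549.8, 1258 and 658 in young control hearts. Every old control heart was above every young heart, and so was every alpha-tocopherol heart, while alpha- and gamma-tocopherol hearts 2, 3 and 4 lay among the young values. The old minus young difference was 1.19 ± 0.20, or 2.27-fold (adjusted p = 0.0011). Neither supplement gave a called change against old controls (-0.33 ± 0.20 for alpha-tocopherol, adjusted p = 0.25, and -0.56 ± 0.20 for the mixture, adjusted p = 0.099). Against young controls Cd93 was called higher in alpha-tocopherol hearts (0.85 ± 0.20, adjusted p = 0.0067), and the mixture gave 0.62 ± 0.20 (adjusted p = 0.075). Cd93 had the highest share of its variance between groups among the 10 genes, 66.8%.

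Meox2 had 337, 732.5, 405, 649 and 595 in alpha-tocopherol hearts and 597, 646, 505, 724 and 989 in alpha- and gamma-tocopherol hearts. It had 762, 848, 1267, 1012 and 962 in old control hearts, against 362, 248, 229, 686 and 512 in young control hearts. The old control values were above all young values and all alpha-tocopherol values, and alpha- and gamma-tocopherol heart 5 reached into their range. The old minus young difference was 1.22 ± 0.26, or 2.33-fold (adjusted p = 0.0070). Alpha-tocopherol gave -0.80 ± 0.26 against old controls, a fold of 0.574 (adjusted p = 0.033), and the mixture -0.47 ± 0.26 (adjusted p = 0.30). Across all 20 arrays the highest Meox2 value was 5.54 times its lowest, the widest range of the 10 genes by their brighter probe sets, and the young values alone ran from 229 to 686.

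**Figure D2:**
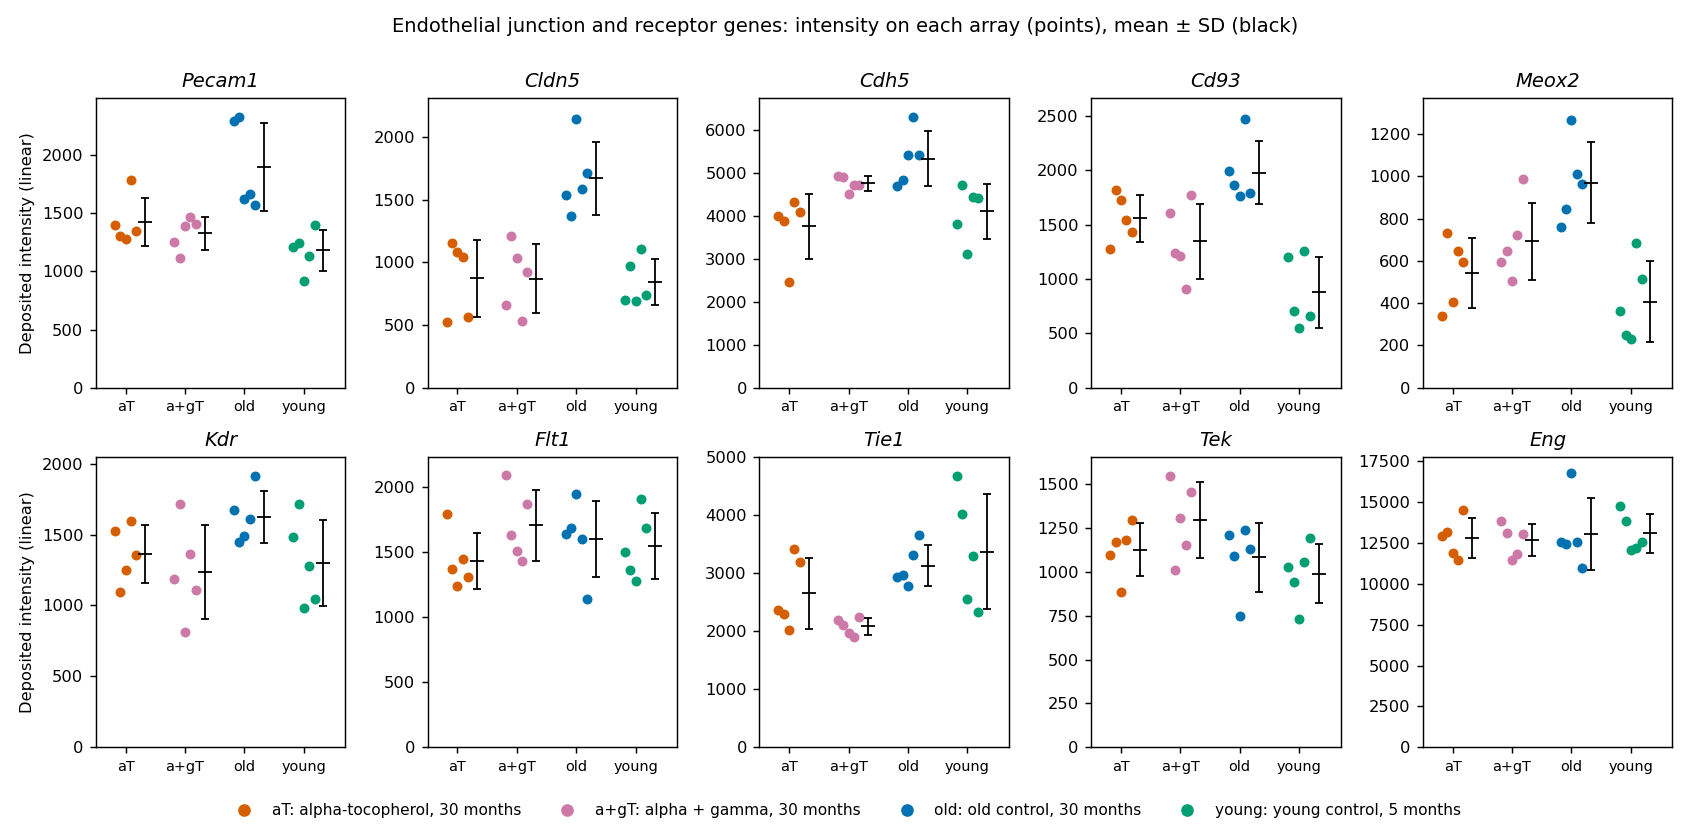
Deposited intensity of each of the 10 genes on each array (points), by group, with the mean and SD of the 5 animals in black; a gene with 2 probe sets is shown by its brighter one. The 5 old control values of Cldn5 stand above all others (1372 and higher), while the 4 groups of Eng overlap between 10959 and 16774.

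Of the growth factor receptors, Kdr, the main signalling receptor for Vegfa, had 1524, 1094.5, 1247, 1596 and 1356 in alpha-tocopherol hearts and 1186, 1718, 811, 1363 and 1106 in alpha- and gamma-tocopherol hearts. It had 1674, 1451, 1488, 1609.9 and 1912 in old control hearts, against 1483, 1714, 985, 1279 and 1047 in young control hearts. The groups overlapped throughout, and the old control values were the narrowest. Old minus young was 0.33 ± 0.17 (95% interval -0.039 to 0.70, adjusted p = 0.33), alpha-tocopherol minus old -0.25 ± 0.17 (adjusted p = 0.32) and the mixture minus old -0.41 ± 0.17 (adjusted p = 0.16).

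Flt1 encodes a receptor that binds Vegfa, Vegfb and placental growth factor and is also made as a soluble form. Its brighter probe set had 1792.5, 1365, 1237, 1441 and 1305 in alpha-tocopherol hearts and 2092, 1626, 1503, 1427 and 1868 in alpha- and gamma-tocopherol hearts. It had 1636, 1682, 1943, 1596 and 1136 in old control hearts, against 1499.8, 1359, 1277, 1902.5 and 1683 in young control hearts. All 4 groups overlapped, and limma called 0 of the 6 comparisons, also at an unadjusted p below 0.05, the old minus young difference being 0.04 ± 0.15 (95% interval -0.28 to 0.36, adjusted p = 0.93). The dimmer probe set spread far more widely, from 172 to 1477, with an old minus young difference of -0.66 ± 0.44 (adjusted p = 0.48). Its highest values were in young control heart 1 and old control heart 4, and the standard error of its differences was 0.44, against 0.15 for the brighter one. The array annotation gives no isoform for either, and none is named here.

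Tie1 was measured by probe sets that did not move alike. The brighter had 2363, 2300.4, 2017, 3419.9 and 3189.6 in alpha-tocopherol hearts and 2199, 2116, 1972, 1909 and 2255 in alpha- and gamma-tocopherol hearts. It had 2931, 2964, 2788, 3310.1 and 3659 in old control hearts, against 4673.5, 4029, 2554, 3299.8 and 2328 in young control hearts. All 5 alpha- and gamma-tocopherol values were below every control value of both ages. The difference was -0.57 ± 0.17 against old controls (fold 0.676, adjusted p = 0.043) and -0.63 ± 0.17 against young controls (fold 0.645, adjusted p = 0.027). Alpha-tocopherol gave -0.25 ± 0.17 against old controls (adjusted p = 0.28).

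The dimmer Tie1 probe set had 1400.4, 1256, 858, 1238 and 1502 in alpha-tocopherol hearts and 1583, 1459, 1429.8, 1450.5 and 1503 in alpha- and gamma-tocopherol hearts. It had 1873, 1961, 2017, 1520.3 and 1440.2 in old control hearts, against 1622, 1774, 1146, 1526 and 1344 in young control hearts. Here the alpha-tocopherol group had the lowest mean, with -0.49 ± 0.15 against old controls (adjusted p = 0.021), a call that the brighter probe set did not give. The mixture gave -0.23 ± 0.15 against old controls (adjusted p = 0.37) and 0.02 ± 0.15 against young controls (adjusted p = 0.97). Each call on Tie1 in a supplemented group therefore rests on 1 of its 2 probe sets, and the call of the mixture against old controls held in 11 of 20 fits that each left out 1 animal.

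**Figure D3:**
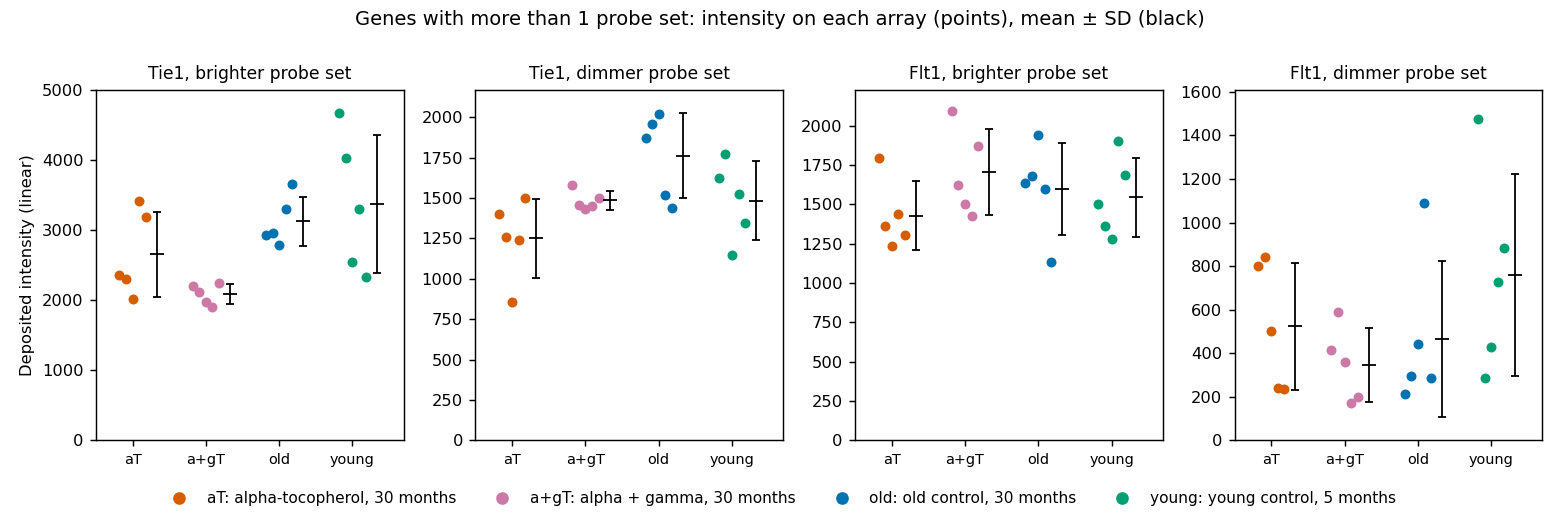
Deposited intensity of both probe sets of Tie1 and of Flt1 on each array (points), by group, with the mean and SD of the 5 animals in black. On the brighter Tie1 probe set the alpha- and gamma-tocopherol values (1909 to 2255) are below those of both control groups, and on the dimmer one (1430 to 1583) they lie among them.

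Tek, the angiopoietin receptor, had 1096, 1172, 887, 1180.4 and 1297 in alpha-tocopherol hearts and 1549, 1013, 1309, 1153.5 and 1453 in alpha- and gamma-tocopherol hearts. It had 1212, 1092, 749.8, 1239 and 1128.5 in old control hearts, against 1029.5, 939.7, 734, 1058 and 1191 in young control hearts. The groups overlapped and limma called 0 of the 6 comparisons, with 1 at an unadjusted p below 0.05, the mixture minus young (0.37 ± 0.16, adjusted p = 0.20). Old minus young was 0.12 ± 0.16 (95% interval -0.22 to 0.46), and the mixture minus old was 0.25 ± 0.16 (adjusted p = 0.38).

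Eng had 12945, 13177, 11874, 11438 and 14541 in alpha-tocopherol hearts and 13879, 13085.5, 11481, 11845 and 13073 in alpha- and gamma-tocopherol hearts. It had 12544, 12423, 16774, 12555.5 and 10959 in old control hearts, against 14790.1, 13862, 12046, 12200 and 12537 in young control hearts. Eng varied least across arrays, and groups accounted for 1.50% of its variance. Old minus young was -0.01 ± 0.10 with a 95% interval of -0.23 to 0.20, and the supplements gave -0.02 ± 0.10 and -0.03 ± 0.10 against old controls. These intervals are the narrowest of the 10 genes.

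Between the supplements, alpha- and gamma-tocopherol against alpha-tocopherol, limma called 0 of the 10 genes at an adjusted p below 0.05, where 0.564% of all probe sets were called (0.309% higher and 0.255% lower), and 1 had an unadjusted p below 0.05. Gamma-tocopherol differs from alpha-tocopherol in lacking a methyl group on its ring, but the dose of alpha-tocopherol also differed between the diets, so the comparison does not isolate gamma-tocopherol. The gene with the low unadjusted p was Cdh5, with 0.36 ± 0.14 (95% interval 0.076 to 0.65, adjusted p = 0.19). Its 5 values of 4939, 4917, 4505, 4715 and 4727.5 in alpha- and gamma-tocopherol hearts were all above the highest alpha-tocopherol value of 4337, and 2.31% of all probe sets were free of overlap in that direction. For Cldn5 the difference was 0.01 ± 0.23 with an interval of -0.48 to 0.51, which does not show that the diets act alike on it. Tie1 gave -0.31 ± 0.17 on its brighter and 0.26 ± 0.15 on its dimmer probe set (adjusted p = 0.36 and 0.39).

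Set against young controls, 1 of the 10 genes was called in each supplemented group. In alpha-tocopherol hearts it was Cd93, higher and without overlap, where 15.6% of all probe sets were called, 6.78% higher and 8.87% lower, and 5.11% were higher without overlap. In alpha- and gamma-tocopherol hearts it was the brighter Tie1 probe set, lower and without overlap, where 5.55% were called, 2.44% higher and 3.11% lower, and 3.48% were lower without overlap. The median difference of the 10 genes was 0.04 for alpha-tocopherol and 0.15 for the mixture, against -0.01 and 0.01 over all tested genes. Meox2 differed by 0.42 ± 0.26 and 0.75 ± 0.26 from young controls (adjusted p = 0.30 and 0.097), and Pecam1 by 0.26 ± 0.14 and 0.17 ± 0.14 (adjusted p = 0.23 and 0.56).

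The changes in alpha-tocopherol hearts were measured on the arrays with high hybridization controls and 18S. With the hybridization controls as a covariate, Cldn5 was -1.24 ± 0.41 against old controls (adjusted p = 0.11), Cdh5 -0.63 ± 0.24 (adjusted p = 0.16) and Meox2 -0.72 ± 0.47 (adjusted p = 0.44). With the 18S level they were -1.23 ± 0.36 (adjusted p = 0.080), -0.48 ± 0.22 (adjusted p = 0.24) and -0.78 ± 0.42 (adjusted p = 0.35). The direction of all 3 was kept, the standard errors grew, and all 3 calls were lost. Cd93 against young controls in these hearts was 0.97 ± 0.34 and 0.48 ± 0.33 with the same covariates (adjusted p = 0.14 and 0.55). In alpha- and gamma-tocopherol hearts Cldn5 stayed called with either covariate (-1.03 ± 0.26 and -1.02 ± 0.25, adjusted p = 0.035 and 0.023). Pecam1 (-0.46 ± 0.16 and -0.45 ± 0.16, adjusted p = 0.12 and 0.098) and Tie1 (-0.54 ± 0.19 and -0.61 ± 0.18, adjusted p = 0.12 and 0.051) did not. All 4 age calls held with either covariate.

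Over all alternatives, the largest adjusted p of the age difference was 0.020 for Cd93 and 0.0499 for Meox2, which lies at the threshold. Leaving out old controls 1 and 4, which lack the F1 mark, Cd93 (1.07 ± 0.24) and Meox2 (1.30 ± 0.32) stayed called with age. Cldn5 (1.00 ± 0.28, adjusted p = 0.070) and Pecam1 (0.61 ± 0.17, adjusted p = 0.061) kept their size and lost the call with 3 old control hearts. The mixture then had 0 of its 3 calls against old controls, with Cldn5 at -0.99 ± 0.28 (adjusted p = 0.072), Pecam1 at -0.44 ± 0.17 (adjusted p = 0.16) and Tie1 at -0.57 ± 0.20 (adjusted p = 0.13). Alpha-tocopherol kept Cldn5 and Cdh5 and lost Meox2 (-0.88 ± 0.32, adjusted p = 0.072). Leaving out young control 3 and old control 3, Cldn5 lost its age call (0.80 ± 0.26, adjusted p = 0.089) and the other 3 genes kept theirs. Meox2 in alpha-tocopherol hearts was then -0.71 ± 0.27 (adjusted p = 0.063), and Pecam1 passed the test there (-0.44 ± 0.14, adjusted p = 0.033).

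**Figure D4:**
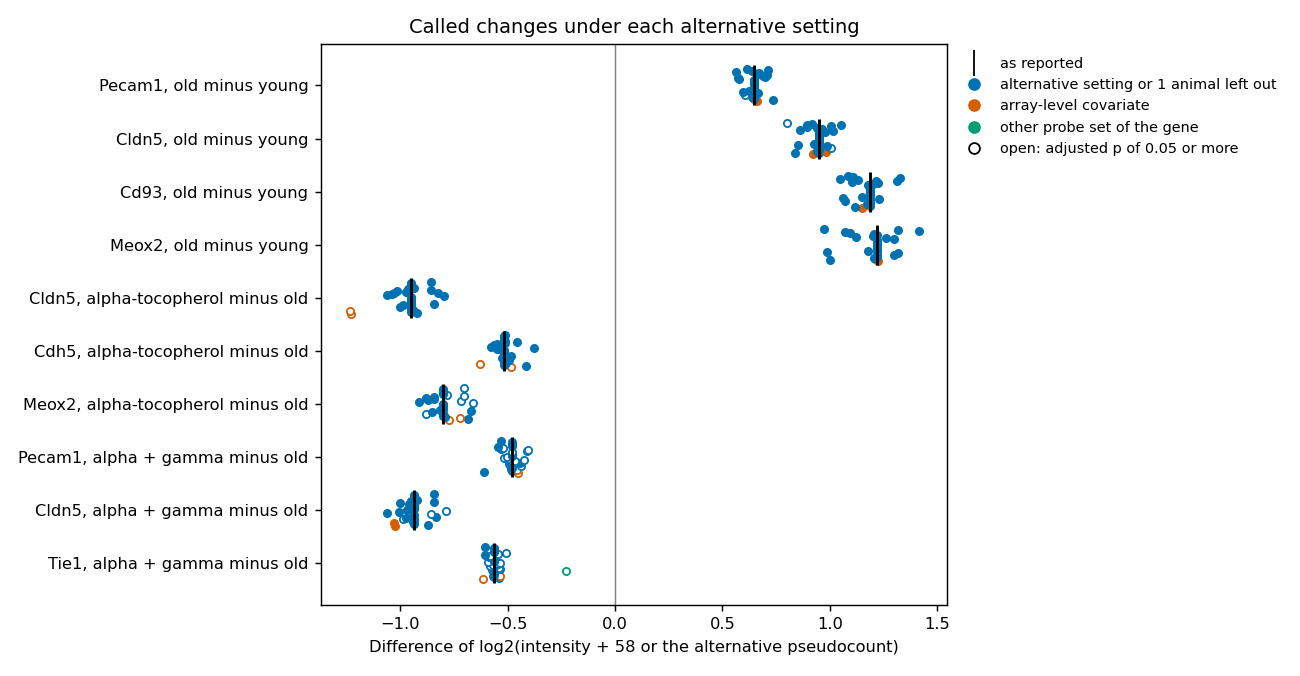
The called changes with age and of each supplement against old controls under all alternative settings, including each of the 20 animals left out in turn, as differences of log2(intensity + pseudocount); bars mark the reported value and open points an adjusted p of 0.05 or more. No point crosses 0, all points of Cd93 and Meox2 with age are filled, and the array-level covariates of the alpha-tocopherol changes are open.

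Of other endothelial genes, 30 were listed, 22 were on the array and 18 were tested. With age 0 of the 18 were called higher and 1 lower, a share near the 4.94% called over all probe sets. By limma 6 of the 18 had an unadjusted p below 0.05, and 12 of the 18 differences were above 0. Their median difference was 0.20, against 0.02 over all tested genes. The gene that fell was Aqp1, a water channel of capillaries, at 2817 to 7729 (median 6299) in old control hearts, against 7983 to 11850 (median 9006) in young control hearts (-0.73 ± 0.19, adjusted p = 0.025). In alpha-tocopherol hearts against old controls, 4 of the 18 fell and 1 rose, with a median of -0.27, where 12.8% of all probe sets were called lower and 8.94% higher. Cd34, a sialomucin of endothelium and other stem and stromal cells, had 1021 to 1582 (median 1239.7) in alpha-tocopherol hearts and 1001 to 1813 (median 1278) in alpha- and gamma-tocopherol hearts, against 2133 to 2889.9 (median 2640.1) in old control hearts. Its changes were -1.02 ± 0.16 (adjusted p = 0.00018) and -0.97 ± 0.16 (adjusted p = 0.0015), while its other probe set gave -0.15 ± 0.18 and -0.22 ± 0.18 and was not called (adjusted p = 0.58 and 0.50). Cav1, the caveolar coat protein (-0.55 ± 0.13), and the adhesion ligand Icam2 (-0.60 ± 0.19) also fell with alpha-tocopherol, the other Cav1 probe set giving 0.13 ± 0.23. The remaining calls, named after their values were seen, were the transcription factor Sox18 (-0.41 ± 0.14) and the peptidase Ece1 (0.40 ± 0.13). In alpha- and gamma-tocopherol hearts Cd34 was the only one of the 18 called. With the covariates, 1 (hybridization controls) and 0 (18S) of the 5 alpha-tocopherol calls were kept, Cd34 being -1.39 (adjusted p = 0.013) and -0.61 (adjusted p = 0.17), while its call with the mixture held with either.

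Partners of the junctions include the proteins that anchor them inside the cell. Of 14 tested partners, of 20 on the array and 26 listed, 0 were called between old and young controls by limma (3 at an unadjusted p below 0.05), 5 fell and 0 rose with alpha-tocopherol, and 1 fell with the mixture. Over all probe sets, too, calls were most frequent with alpha-tocopherol (21.7%, against 6.43% with the mixture and 4.94% with age). Ctnnb1, the beta-catenin that binds the tail of VE-cadherin and of other cadherins in many cell types, was 7117 to 9937 (median 8551) in alpha-tocopherol hearts and 10343 to 13804 (median 12215) in alpha- and gamma-tocopherol hearts. It was 15496 to 20231 (median 16728) in old control hearts, against 12579.6 to 15275 (median 13149) in young control hearts. The 3 groups of 30 months did not overlap, with -1.01 ± 0.10 for alpha-tocopherol (adjusted p = 1.6e-06) and -0.50 ± 0.10 for the mixture (adjusted p = 0.0054) against old controls, and 0.51 ± 0.10 between them (adjusted p = 0.032). The tight junction proteins F11r (-0.44 ± 0.12) and Tjp1 (-0.43 ± 0.12) fell with alpha-tocopherol. So did alpha-catenin Ctnna1 (-0.38 ± 0.12) and the small GTPase Rac1 (-0.26 ± 0.08), both named after their values were seen. With either covariate 1 of these 5 calls was kept, that of Ctnnb1, which also stayed called with the mixture against old controls. Its call between the supplements was lost with either (0.56 and 0.49, adjusted p = 0.16 and 0.32).

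Of the ligands, 8 of 10 on the array and 13 listed were tested, and 0 were called with age by limma (1 at an unadjusted p below 0.05, Vegfa). Beside the lists of this paragraph, 2.74% of all probe sets were called higher and 2.20% lower with age. These shares were 8.94% and 12.8% for alpha-tocopherol against old controls, and 2.67% and 3.76% for the mixture. Vegfa, the ligand of Kdr and Flt1, was 2718 to 4981 (median 2873) in alpha-tocopherol hearts and 2712 to 4337 (median 3783) in alpha- and gamma-tocopherol hearts. It was 4168 to 6865 (median 5106) in old control hearts, against 3121 to 4053 (median 3524) in young control hearts. The alpha-tocopherol change of -0.62 ± 0.18 was called (adjusted p = 0.015), and those of the mixture (-0.55 ± 0.18, adjusted p = 0.064) and of age (0.55 ± 0.18, adjusted p = 0.072) were not. With the hybridization control and 18S covariates the alpha-tocopherol difference was -0.47 and -0.35 and not called (adjusted p = 0.44 and 0.52). The angiopoietins Angpt1 and Angpt2, ligands of Tek, differed by 0.12 ± 0.24 and 0.25 ± 0.25 with age and were called in 0 of the 6 comparisons, also at an unadjusted p below 0.05. Of 7 tested co-receptors, 1 rose with age: Nrp1, a co-receptor of Kdr, with 0.73 ± 0.16 (adjusted p = 0.0082), its other probe set giving 0.45 ± 0.17 (adjusted p = 0.14). Tgfbr3 (0.65 ± 0.14) and Acvrl1, a receptor that Eng assists (0.51 ± 0.12), rose with alpha-tocopherol, where neither of 2 further Acvrl1 probe sets was called. Both calls were lost with either covariate (Tgfbr3 0.67 and 0.76, adjusted p = 0.15 and 0.079, and Acvrl1 0.42 and 0.38, adjusted p = 0.32 and 0.31). Tcf15, the partner of Meox2, differed by 0.25 ± 0.13 with age and was not called (adjusted p = 0.31). Of the 6 genes of that partner list, lipoprotein lipase Lpl rose in alpha-tocopherol hearts (0.33 ± 0.12, adjusted p = 0.047) and in alpha- and gamma-tocopherol hearts (0.41 ± 0.12, adjusted p = 0.036) against old controls. Neither call held with either covariate: Lpl was -0.03 and 0.35 with alpha-tocopherol (adjusted p = 0.96 and 0.33) and 0.29 and 0.42 with the mixture (adjusted p = 0.16 and 0.060). The other Lpl probe set gave 0.36 ± 0.16 with alpha-tocopherol and 0.28 ± 0.16 with the mixture and was not called (adjusted p = 0.12 and 0.32).

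Markers of other cells moved on the same arrays, and their part in the results was not tested. The summed intensity of the 10 genes was 24204 to 29726 in alpha-tocopherol hearts, 25725 to 29958 in alpha- and gamma-tocopherol hearts, 30259 to 35967 in old control hearts and 23109 to 30779 in young control hearts. Eng, the brightest of the 10 genes at 10959 to 16774, weighs most in these sums. The highest sum, in old control heart 3, came with the highest Eng value. Pericyte and smooth muscle markers summed to 24367 to 31296 and 24422 to 31250.5 in the supplemented groups, against 31759 to 36394 in old control hearts, without overlap. They summed to 25041 to 39383 in young control hearts (median 35915, against 35935 in old control hearts). Fibroblast markers had median sums of 88962 in alpha-tocopherol, 81141 in alpha- and gamma-tocopherol, 85352 in old control and 88704 in young control hearts. Cardiomyocyte markers had median sums of 925360, 769213, 789253 and 788544 in the same order. For alpha-tocopherol against old controls, 3 of 11 pericyte and smooth muscle markers fell and 1 rose, and 7 of 12 fibroblast markers fell and 1 rose. Of the myeloid markers 6 of 10 fell and 0 rose, and 4 of 12 cardiomyocyte markers rose and 1 fell, where 21.7% of all probe sets were called. With the hybridization control covariate 0 of the 4 pericyte and smooth muscle calls, 1 of the 8 fibroblast, 0 of the 6 myeloid and 0 of the 5 cardiomyocyte calls were kept, and with the 18S covariate 0, 0, 2 and 0. For the mixture, 1 of 11, 4 of 12, 1 of 10 and 0 of 12 fell, and 1 fibroblast marker rose. Over all probe sets 3.76% were called lower and 2.67% higher in that comparison. With age, 1 cardiomyocyte and 1 fibroblast marker rose, and 0 myeloid markers were called, also at an unadjusted p below 0.05. On the pericyte and smooth muscle list 1 gene fell, Des (-0.53 ± 0.14, adjusted p = 0.023). Heart muscle also expresses Des, so its fall is not particular to pericytes or smooth muscle, and the sums of that list include it. Over all probe sets 2.74% were called higher with age and 2.20% lower. Of the lymphatic, endocardial, platelet and T cell lists, 3, 2, 1 and 1 genes were tested and 0 were called by limma in any of the 6 comparisons, also at an unadjusted p below 0.05. Myeloid markers, which bear on Cd93 and Pecam1 because leukocytes carry both, summed to 22615 to 37916 in alpha-tocopherol hearts, 20651 to 39859.8 in alpha- and gamma-tocopherol hearts, 36084 to 44781 in old control hearts and 30755 to 50186 in young control hearts.

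**Figure D5:**
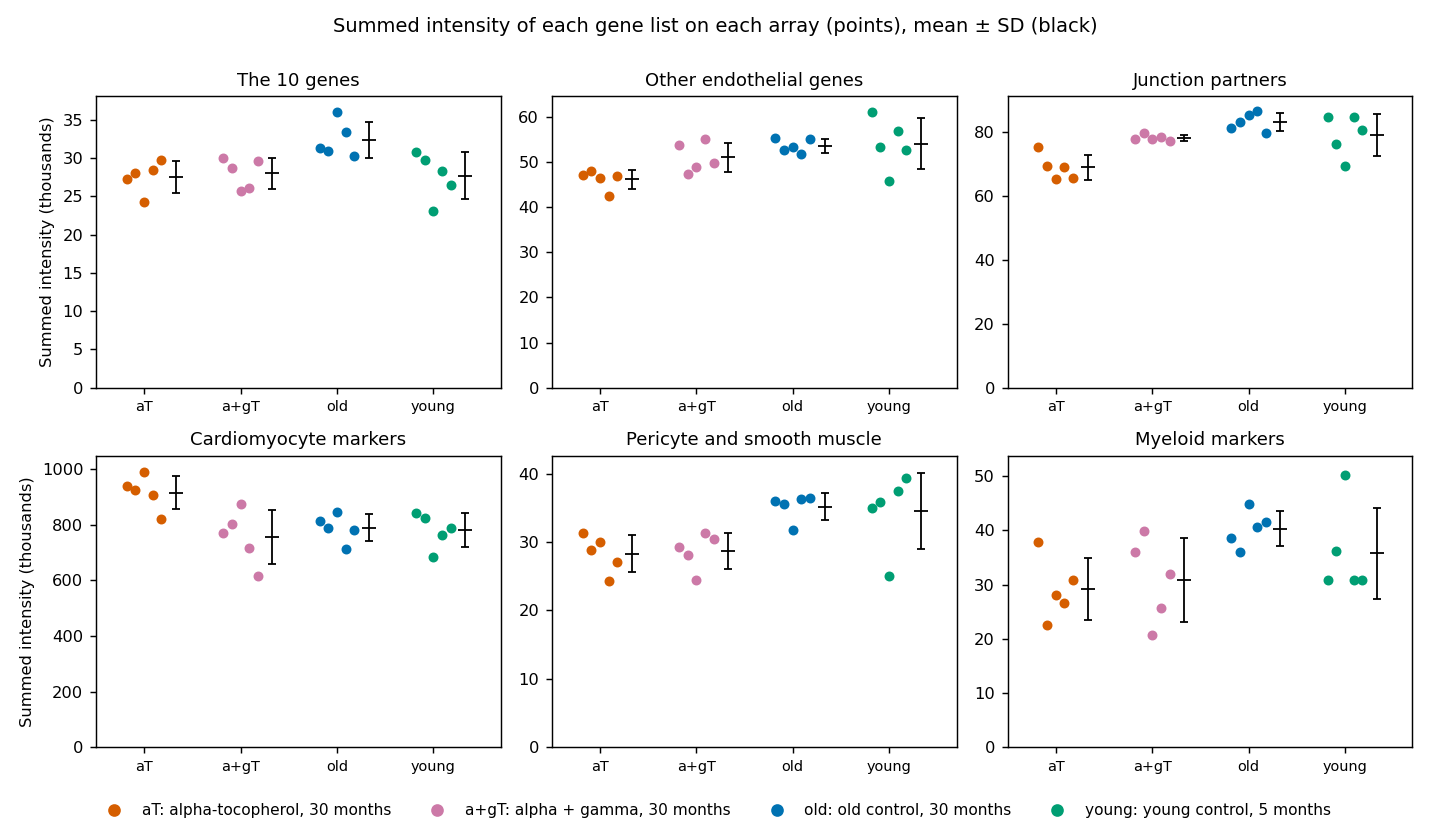
Summed intensity of 6 gene lists on each array (points, sum divided by 1000), by group, with the mean and SD of the 5 animals in black. The 10 genes sum to more in every old control heart (30259 or more) than in any supplemented heart (29958 or less), and the pericyte and smooth muscle markers do the same.

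The 10 genes did not move as a block across the 20 arrays. Over their 45 pairs the correlation of log2 values ran from -0.23 to 0.72 with a median of 0.27, and with group means removed from -0.28 to 0.59 with a median of 0.17. Cd93 and Meox2 had the highest correlation (0.72, and 0.46 within groups), Cdh5 and Meox2 gave 0.65 (0.43 within groups), and Pecam1 and Cd93 gave 0.59 with 0.0046 within groups. Within groups the closest pair was Kdr and Tie1, at 0.59. These are descriptions over arrays that share the group differences and the array-level signals.

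Among 5653 other genes, those most like each of the 10 across the 20 arrays were named by their correlation of log2 values. For Cldn5 they were Mrfap1 (r = 0.85, 0.62 within groups) and Mrpl39 (r = 0.84, 0.58 within groups). For Pecam1 they were Sh3bgr (r = 0.83, 0.46 within groups) and Tnnt1 (r = 0.82, 0.54 within groups). Cdh5 was closest to Rpp30 (r = 0.86, 0.77 within groups) and Clip4 (r = 0.83), Cd93 to Oxct1 (r = 0.84, 0.56 within groups) and Cpxm2 (r = 0.80), and Meox2 to Dipk2a (r = 0.85, 0.66 within groups) and Cacybp (r = 0.83). The receptors had other neighbours: Cpq (r = 0.77) and Col15a1 (r = 0.74) for Kdr, Pard3 (r = 0.72) and Ube2k (r = 0.70) for Flt1, and Rrbp1 (r = 0.79) and Epas1 (r = 0.75) for Tie1. Tek was closest to P4ha2 (r = 0.83, 0.76 within groups) and Tspan12 (r = 0.79, 0.80 within groups). Eng was closest to Clptm1 (r = 0.75, 0.78 within groups) and Eef1a2 (r = 0.75, 0.78 within groups). Spearman rank correlations of the named pairs ran from 0.55 (Eng and Clptm1) to 0.91 (Cd93 and Oxct1). The highest values among 5653 genes over 20 arrays are large in part by selection, so these pairs are descriptions only.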

How the data were processed

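Hearts of 20 mice were profiled on 1 oligonucleotide array each. Per the labels' protocols, polyadenylated RNA was isolated from total RNA of frozen hearts and labelled with biotin as complementary RNA. The authors deposited 1 linear intensity per probe set and array. The software and its settings are not given in the sources used here. Every array has a trimmed mean of 1501 when 2% is left out at each end, so this scaling was kept. The number of arrays, not read depth, limits the precision, and differences between groups had a median standard error of 0.18 on the log2 scale.

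Of 12422 probe sets other than controls, the platform annotation names 1 gene for 10833, several for 396 and none for 1193, and 10817 matched a RefSeq table (GRCm38.p6), which changed 0 symbols. The pseudocount of 58 is the 10th percentile of all values. One limma model (version 3.58.1, R 4.3.3) with the 4 group means was fitted to all arrays, its variances moderated with a robust intensity trend on 16 residual degrees of freedom, and p-values are two-sided with Benjamini-Hochberg adjustment over 7453 probe sets. There were 6 comparisons, 14 alternative settings and 20 fits that each left out 1 animal. The genes, the gene lists, the tests and the alternatives were chosen with earlier results of these data known. Named genes are the 10 genes, up to 3 called genes of each list and comparison with the largest change, and the 2 genes most like each of the 10; others were named after their values were seen. The marker lists were for cardiomyocytes, pericytes and smooth muscle, fibroblasts, myeloid cells, platelets, T cells, lymphatic endothelium and endocardium. The fit was tested on simulated data.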

Additional observations from a re-analysis of the deposited data

Results flagged for a closer look

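In 3 of 48 groups of 5 arrays checked, 1 heart stood apart from the rest of its group by the gap to its nearest neighbour, about what chance gives, which is 1 in 20 groups. Alpha-tocopherol heart 4 had the highest Pecam1 intensity of its group, 1784.2, where the other 4 lay between 1280.4 and 1396.6. Alpha-tocopherol heart 3 had the lowest Cdh5 intensity of its group, 2453, where the other 4 lay between 3890 and 4336.7. Old control heart 3, the array with the raised Gapdh 3' signal, had the lowest Tek intensity of its group, 749.8, where the other 4 lay between 1092 and 1238.6. Cdh5 in alpha-tocopherol hearts stayed called against old controls in all 20 fits that each left out 1 animal.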

How the results depend on the processing

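Of the values of called changes under the alternatives, 132 of 135 kept their call for age, 88 of 101 for alpha-tocopherol and 64 of 102 for the mixture against old controls, and 0 of these changed sign. One value against young controls changed sign: the mixture minus young difference of Tie1 was 0.017 on the dimmer probe set. Of the 10 genes, the mixture minus old comparison called 3, against 1 with no filter, 1 after quantile normalization, 1 with the hybridization control covariate, 1 with the 18S covariate, 0 without old controls 1 and 4, and 0 to 3 when 1 animal was left out (0 without alpha- and gamma-tocopherol heart 1 or 4). Alpha-tocopherol minus old called 3, against 0 with either covariate, and alpha-tocopherol minus young called 1, against 0 with either covariate. Age called 4, against 2 without old controls 1 and 4. The mixture minus young called 1, against 0 with only the groups compared, 0 with the hybridization control covariate, and 0 to 3 when 1 animal was left out (0 without young control 2 or without alpha- and gamma-tocopherol heart 3, 3 without young control 4). With the replicate number as a block, 4, 3, 2 and 0 genes were called for age, alpha-tocopherol, the mixture against old controls and the mixture against alpha-tocopherol, and 1 for each supplement against young controls. Same-numbered hearts did not deviate together (30 correlations from -0.084 to 0.10, median 0.0067). No shared effect of the number was seen, which does not show that the animals were unpaired.

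Over all probe sets, alpha-tocopherol minus old called 1619, against 144 with the hybridization control covariate, 142 with the 18S covariate and 981 without old controls 1 and 4; alpha-tocopherol minus young called 1166, against 189 and 52 with the covariates. The mixture minus old called 479, against 242 with the hybridization control covariate, 162 without old controls 1 and 4 and 858 with array weights. Age called 368, against 150 without old controls 1 and 4 and 731 with array weights. The mixture minus alpha-tocopherol called 42, with 0 to 79 under the alternatives. The causes were not tested, beyond the smaller groups where animals were left out. In the setting without the dimmest 60% Meox2 is not tested.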

Other observations

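Nrp1, a co-receptor of Kdr, was higher than in young controls in all 3 groups of 30 months, which share the same 5 young control hearts. It was 4485.5 to 5237.5 (median 4899) in alpha-tocopherol hearts, 2770.3 to 5445 (median 4989.7) in alpha- and gamma-tocopherol hearts and 4306 to 5712 (median 4685) in old control hearts, against 2179.5 to 4032 (median 2897) in young control hearts. The differences from young controls were 0.73 ± 0.16 (adjusted p = 0.0040), 0.56 ± 0.16 (adjusted p = 0.046) and 0.73 ± 0.16 (adjusted p = 0.0082), by limma with Benjamini-Hochberg adjustment. Its other probe set gave 0.37 ± 0.17, 0.79 ± 0.17 and 0.45 ± 0.17 (adjusted p = 0.15, 0.0077 and 0.14). With either covariate the age difference stayed called (0.72 and 0.70, adjusted p = 0.013 and 0.011), while the alpha-tocopherol differences were 0.82 and 0.43 (adjusted p = 0.11 and 0.49) and those of the mixture 0.58 and 0.44 (adjusted p = 0.063 and 0.18).

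Further genes of the lists differed from young controls in alpha-tocopherol hearts, where 15.6% of all probe sets were called. Cldn3, a claudin best known from epithelium, averaged 616 in alpha-tocopherol hearts, against 261 in young control hearts (1.07 ± 0.28, adjusted p = 0.012). Cd36, the fatty acid transporter of capillaries and muscle, averaged 1739 in alpha-tocopherol hearts, against 2710.4 in young control hearts (-0.62 ± 0.15, adjusted p = 0.0063). Aqp1 differed by -0.69 ± 0.19 (adjusted p = 0.018). These arrays had high hybridization control and 18S levels. With the 2 levels as covariates in turn, Cldn3 was 1.49 and 0.59 (adjusted p = 0.086 and 0.60), Cd36 -0.77 and -0.26 (adjusted p = 0.095 and 0.64) and Aqp1 -0.70 and -0.29 (adjusted p = 0.26 and 0.71), so that 0 of these 3 calls was kept. Other list genes called here kept their call with 1 covariate. Ctnnb1 (-0.76, adjusted p = 0.017) and Cd34 (-0.96, adjusted p = 0.047) did so with the hybridization controls, and the junction partner Jup with 18S (-0.86, adjusted p = 0.040). Each lost it with the other covariate (adjusted p = 0.077, 0.81 and 0.41), and the other Cd34 probe set gave 0.18 ± 0.18 without a covariate.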
